A study of Mus musculus with 32 samples.

Results

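Cytochrome c, 6 members of the Bcl2 family (Bax, Bad, Bid, Bcl2, Bcl2l1 and Mcl1) and the caspases Casp6 and Casp8 belong to programmed cell death: most to its mitochondrial route, Casp8 to the start of the death receptor route and Casp6 to the executioners. They were followed in UB/OC-1 cells, a mouse line from the embryonic cochlea that can be switched out of continuous division. Members were the probe sets to which the platform annotation gives one of these 9 gene symbols alone. This gave 7 genes with 11 probe sets, of 6137 genes and 13057 probe sets on a pair of oligonucleotide array designs (a and b) after controls were left out. No probe set carried the symbol Bax or Casp8, and those genes were not analysed here. The groups were cells kept at 39 °C, under the conditions the labels call differentiating, on days 1 to 3 (early, n = 4 arrays per design), days 4 to 7 (middle, n = 5) and days 8 to 14 (late, n = 5), and undifferentiated cells at 33 °C (day 0, n = 2). No treatment other than the temperature is named. Experiment A covered 12 days and experiment B 4 (days 0, 2, 4 and 9), with total RNA of each day measured on both designs, 32 samples in all. The cells are 1 line immortalised with a temperature-sensitive viral T antigen. Temperature, T antigen activity and differentiation therefore cannot be told apart in any comparison with day 0.

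Cytochrome c is a small haem protein that carries electrons between complexes III and IV of the respiratory chain. Once released from mitochondria it binds Apaf1, which activates caspase 9 and then executioner caspases. Members of the Bcl2 family decide on that release: Bax is a pore-forming effector, Bad and Bid are BH3-only proteins that promote death, and Bcl2, Bcl2l1 (Bcl-x) and Mcl1 restrain it. In the inner ear the same route is known for the loss of hair cells after noise or ototoxic drugs.

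The results turn on Cycs and Mcl1, so their promoters are shown, each 250 bases before to 50 bases after the annotated start (RefSeq, GRCm38.p6, 5′ to 3′ on the gene's strand). All 9 genes had an entry, of 1 promoter each except Bad with 2 and Bcl2l1 with 3. The Cycs window is chr6:50566520-50566819 on the minus strand and the Mcl1 window chr3:95658471-95658770 on the plus strand. Capitals mark matches, on either strand, to 5 motifs: the cAMP response element core TNACGTCA, the NRF-1 core GCATGCGC, the GC box GGGCGG, the CCAAT box CCAAT and the Ets core CCGGAAG.
Cycs promoter: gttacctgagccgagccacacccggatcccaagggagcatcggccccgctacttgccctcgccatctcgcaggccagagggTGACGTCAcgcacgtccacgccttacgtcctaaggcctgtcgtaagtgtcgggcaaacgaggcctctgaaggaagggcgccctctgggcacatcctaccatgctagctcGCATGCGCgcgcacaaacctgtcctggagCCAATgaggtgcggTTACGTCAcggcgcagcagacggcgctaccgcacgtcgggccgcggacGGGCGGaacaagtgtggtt
Mcl1 promoter: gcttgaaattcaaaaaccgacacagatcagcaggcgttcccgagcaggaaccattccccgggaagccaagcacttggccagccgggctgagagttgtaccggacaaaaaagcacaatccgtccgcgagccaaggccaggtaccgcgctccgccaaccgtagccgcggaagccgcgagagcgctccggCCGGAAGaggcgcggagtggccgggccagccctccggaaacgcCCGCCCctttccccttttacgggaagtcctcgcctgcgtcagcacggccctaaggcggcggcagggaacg
The Cycs window held a TGACGTCA whose first base lies at position -169 from the start, which reads the same on both strands, and a TTACGTCA at -17. It also held an NRF-1 core at -60, a CCAAT box at -31 and a GC box at 32. NRF-1 and CREB are textbook regulators of the rodent Cycs gene. The Mcl1 window held an Ets core at -63 and a GC box on the other strand at -20. Of all 32851 promoters in the table, 2.93% hold TNACGTCA, 2.71% GCATGCGC, 35.7% GGGCGG, 37.4% CCAAT and 8.86% CCGGAAG. Of the other members' windows, none held TNACGTCA, and GCATGCGC was found in that of Bax. A match describes the letters and shows no binding in these cells.

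Values are array intensities as the authors scaled them, a linear unit in which 22.9% of the readings of design a and 33% of those of design b are negative. A reading was taken as above the floor when it exceeded 141 on design a or 198 on design b, set at the 75th percentile of the size of each design's negative readings without their sign. The share of probe sets above it per array was 44.3% to 50.8% for design a and 30.9% to 40.4% for design b. Changes are log2 differences between phase means of the floored values, with their standard error (SE), from limma, and a change passed at an adjusted p under 0.05 over the 7726 probe sets tested on both designs. Design a arrays of experiment B had a lower noise level (the same percentile taken per array) of 68 to 160, against 103 to 204 in experiment A. Of the otic markers, Myo7a was above the floor on 15 of 16 arrays, Gata3 on 12 and the 2 Pax2 probe sets on 11 and 9, while Sox2 and Atoh1 were above it on 0. Of markers of other cells, the epithelial Krt18 and the leukocyte genes Ptprc and Lyz2 were above the floor on all 16 arrays and the fibroblast gene Dcn on 13, while Cdh1, Epcam, Krt19 and Csf1r were above it on 0. Each day was 1 array per experiment and nothing in the labels names separate cultures, so the p-values reflect only how these arrays vary, which may be technical.

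Of the 11 member probe sets, 10 were above the floor on at least 2 arrays and were tested. Early against day 0, 1 of them fell and 0 rose, where 2.05% of all probe sets tested fell and 1.45% rose. In the middle phase 1 fell and 0 rose (4.58% and 3.61% of all), and late 2 fell and 0 rose (6.08% and 4.84% of all). Late against early, both at 39 °C, 0 of 10 passed in limma (0.984% of all passed, 76 probe sets, with 773 under an unadjusted p of 0.05). A smooth change with day, tested by a spline in day, passed for 2 of 10 (9.73% in all). The probe sets that passed all belong to Cycs. The median change of the 10 was 0.06 late, against 0.11 over all probe sets tested. With experiment as a block, Mcl1 rose as well, in all 3 phases.

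**Figure D1:**
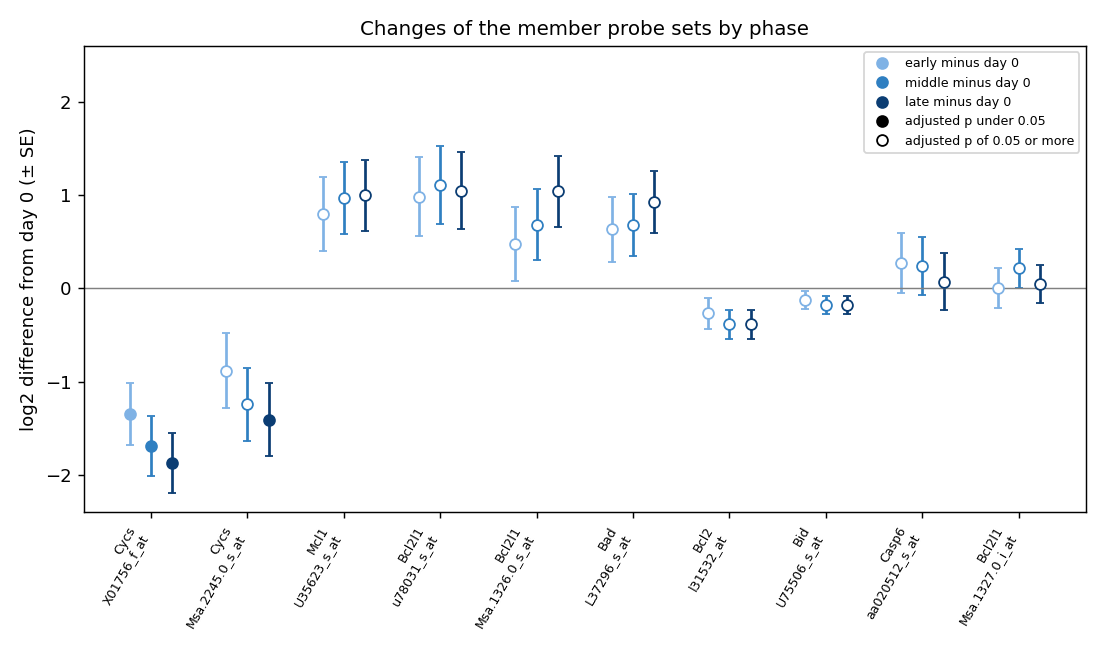
Log2 difference from day 0 (vertical axis, ± SE) of the 10 tested member probe sets in the early, middle and late phase; filled points passed and open points did not. The Cycs points lie below 0, from -0.88 to -1.87, while those of Mcl1, of Bad and of Bcl2l1 on its 2 brighter probe sets lie above 0 and are open. The plotted fit has no block for experiment, and with the block Mcl1 passed in each phase.

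Cycs, cytochrome c itself, fell after the shift to 39 °C. On its brighter probe set (X01756_f_at, design b) the day 0 arrays read 4056 in experiment A and 3324 in experiment B. Early arrays read 2345, 1001 and 1256 on days 1, 2 and 3 of experiment A and 1466 on day 2 of experiment B. The middle arrays read 1284, 881, 1268 and 1056 on days 4 to 7 of experiment A and 1262 on day 4 of experiment B. Most of the difference was thus present by day 2 in both experiments, with the day 1 array between day 0 and the rest. The late arrays read 1135, 1310, 781 and 993 on days 8, 9, 11 and 14 of experiment A and 875 on day 9 of experiment B. No array at 39 °C reached either day 0 array.

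The fall on this probe set was 1.35 ± 0.33 early (SE, n = 4 against 2, 2.55-fold lower, adjusted p = 0.0264), 1.69 ± 0.32 in the middle phase (n = 5 against 2, 3.23-fold lower, adjusted p = 0.00204) and 1.87 ± 0.32 late (n = 5 against 2, 3.67-fold lower, adjusted p = 0.000814) on the log2 scale. Late against early the difference was -0.53 ± 0.26, which did not pass (adjusted p = 0.511), with a 95% interval of -1.06 to 0.01. The change with day passed (adjusted p = 0.00132). The early call was lost when the day 0 array of experiment A (adjusted p = 0.174) or B (0.117) was left out, or day 2 (0.0827) or day 3 (0.0736) of experiment A, in experiment A alone (0.14) and with no filter on dim probe sets (0.078), each time with a change between -1.17 and -1.50.

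The other Cycs probe set, also on design b, read 1725 and 1903 on day 0 of experiments A and B. Early it read 1404, 1064 and 691 in experiment A and 901 in experiment B, and in the middle phase 703, 762, 1019 and 477 in experiment A and 1013 in experiment B. Late it read 684, 776, 755 and 375 in experiment A and 979 in experiment B. Here too every later array lay below both day 0 arrays, and the lowest was the last, day 14. The late fall was 1.41 ± 0.39 (2.66-fold lower, adjusted p = 0.0250), and the change with day passed (adjusted p = 0.00884). The early difference (-0.88 ± 0.40, adjusted p = 0.346) and the middle one (-1.24 ± 0.39, adjusted p = 0.0577) did not pass, and the middle one did with experiment as a block (-1.15 ± 0.36, adjusted p = 0.0464). The late call was lost when the day 0 array of experiment A (adjusted p = 0.094) or B (0.195) was left out, in experiment A alone (0.12) and with no filter (0.0585), and the call of the change with day without day 0 of experiment B (0.0638).

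The pair of probe sets names the same GenBank entry and is not independent evidence of the gene. The f_at suffix of the brighter one marks a probe set shared by a gene family, and processed copies of Cycs are common in the mouse genome, so its readings are uncertain as to the copy. The groups did not overlap for 2 member probe sets in the lower direction in every phase, both of Cycs. Over all probe sets tested, such separation downwards held for 8.56% early, 10.4% in the middle phase and 10.4% late. In the higher direction it held for 1 of 10 member probe sets early (7.17% of all), 1 in the middle phase (10.1%) and 3 late (10.5%). These were Bad in each phase and, late, also Mcl1 and the brighter design b probe set of Bcl2l1.

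The fall was present within each experiment. Against day 0 of its own experiment, the brighter probe set stood at -2.02, -1.66 and -1.63 on days 2, 4 and 9 of experiment A and at -1.18, -1.40 and -1.93 on the same days of experiment B, on the log2 scale. The other stood at -0.70, -1.30 and -1.15 in experiment A and at -1.08, -0.91 and -0.96 in experiment B. Every one of these values is below 0. The values of a probe set within an experiment share its single day 0 array, and both probe sets were read on the same arrays.

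**Figure D2:**
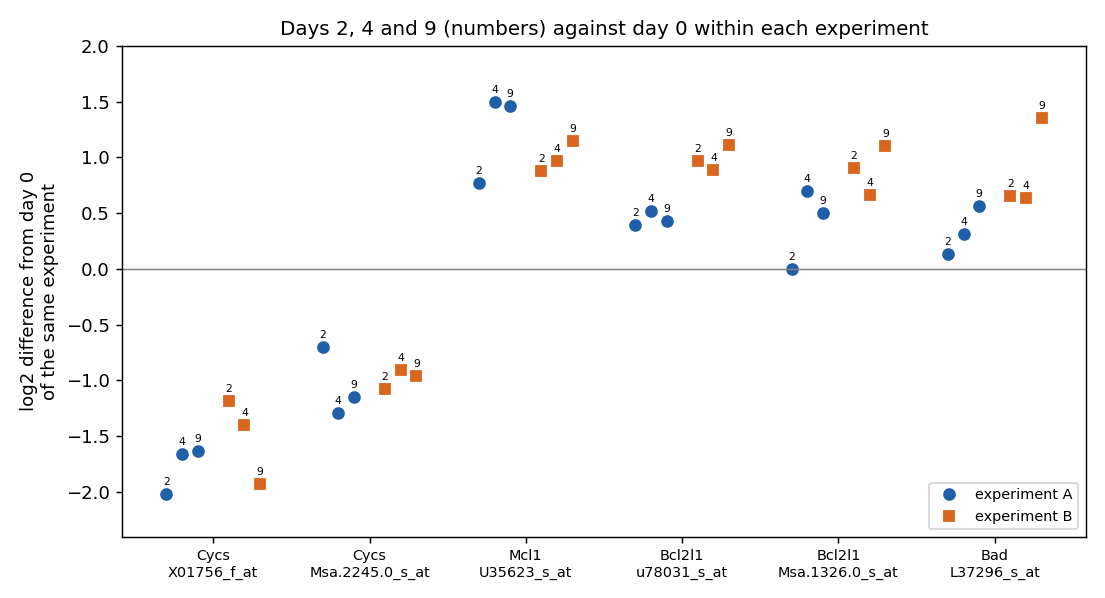
Log2 difference of days 2, 4 and 9 (numbers above the points) from day 0 of the same experiment, for the 6 member probe sets above the floor on every array; circles are experiment A and squares experiment B, 1 array each. Both Cycs probe sets lie below 0 and Mcl1 above 0 on each day of both experiments.

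Markers of dividing cells moved in the same direction as Cycs. Of the 6 probe sets tested of this list (5 genes: Mki67, Top2a, Ccna2, Pcna and Tk1), 3 fell early, 4 in the middle phase and 5 late, and 0 rose. Over all probe sets tested, 2.05% fell early, 4.58% in the middle phase and 6.08% late. The summed intensity of the 4 on design b was 1641 to 2213 on the late arrays, against 5214 to 5504 at day 0. Mki67, a nuclear antigen of cycling cells, averaged 624 late against 1598 at day 0, a fall of 1.37 ± 0.30 (adjusted p = 0.00557). Its probe set also had the pattern most like that of Cycs (Pearson r = 0.949 over 16 arrays of design b, of 738 probe sets searched), followed by Psmb8 (0.928), an immunoproteasome subunit, and Nme2 (0.917), a nucleoside diphosphate kinase. These arrays share their days and their scaling, and the part of cell division in the level of Cycs was not tested. In bulk RNA, fewer cells of a type and less RNA per cell cannot be told apart.

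Markers of other cells moved over the same comparison. Krt18, an epithelial keratin, averaged 955.4 in the middle phase and 814.6 late, against 4836 at day 0, and fell by 2.64 ± 0.37 late (adjusted p = 0.000134), while the 2 Krt8 probe sets did not pass. Dcn, the fibroblast proteoglycan decorin, averaged 9679 in the middle phase and 15930 late, against 75 at day 0, where both arrays lay below the floor, and it rose late (n = 5 against 2, adjusted p = 0.000173). The other 5 mesenchymal probe sets tested did not pass late. The summed intensity of the 4 on design b was 5565 to 22966 late, against 0 to 227 at day 0, but Dcn alone read 5146 to 22560 late. The other design b probe sets in that sum read at most 333 (Col1a1), 469 (Pdgfrb) and 406 (Col3a1) late, so it describes Dcn rather than the list. Every Col1a2 probe set was above the floor on 0 arrays. Of the otic list 1 of 8 probe sets rose late, that of Gata3, a transcription factor of the early ear (1.59 ± 0.46, adjusted p = 0.0311). Over all probe sets tested, 4.84% rose late. Of the macrophage and blood list 0 of 4 passed in any phase. Lyz2, a lysozyme of macrophages, averaged 5292 late against 2112 at day 0 (adjusted p = 0.131), and the summed intensity of the 3 on design a was 3370 to 12740 late, against 1381 to 4934 at day 0. Of the muscle list 0 of 7 passed in any phase, and Myog, a myogenic transcription factor above the floor on all 16 arrays, averaged 953.8 late against 819 at day 0. The part of these cell types in the changes of Cycs and the other members was not tested.

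Among the proteins that restrain release, Mcl1, a short-lived relative of Bcl2, had higher readings at 39 °C in both experiments (U35623_s_at, design a). Day 0 read 287 in experiment A and 569 in experiment B. The early arrays read 503, 489 and 932 in experiment A and 1049 in experiment B, and the middle arrays 808, 884, 546 and 719 in experiment A and 1114 in experiment B. The late arrays read 751, 789, 678 and 670 in experiment A and 1263 in experiment B. All 11 later arrays of experiment A lay above its day 0 array, and so did all 3 of experiment B. Each experiment has a single day 0 array, so its level alone can set this order. Bad had the same order, and the share of all probe sets with it was not counted. Experiment B read higher than experiment A on each shared day, and the pooled early and middle groups overlapped day 0. The late group lay above day 0, as it did for 10.5% of all probe sets tested.

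Without regard to experiment, Mcl1 did not pass: the difference was 0.79 ± 0.40 early (adjusted p = 0.427), 0.97 ± 0.38 in the middle phase (0.145) and 1.00 ± 0.38 late (0.114). With experiment as a block it rose by 0.99 ± 0.28 early (1.98-fold, adjusted p = 0.0418), by 1.20 ± 0.27 in the middle phase (2.30-fold, 0.00617) and by 1.23 ± 0.27 late (2.34-fold, 0.00426), and the change with day passed (0.00582, against 0.187 without the block). In the blocked fit 6.07% of all probe sets passed early, 12.4% in the middle phase, 14.5% late and 16.1% for the change with day. The middle and late differences passed with each array's noise level as a covariate (0.94, adjusted p = 0.0439, and 1.13, 0.0152) and with its Gapdh control ratio (1.17, 0.00957, and 1.21, 0.00573). On design a that ratio (log2 of 3′ over 5′) was 0.0749 to 1.4 in experiment A and -0.397 to -0.223 in experiment B. The noise level was 103 to 204 in A and 68 to 160 in B. Both covariates thus differ between the experiments, so these fits overlap with the blocked one and are not separate support. The blocked late-against-early difference was 0.24 ± 0.21 (adjusted p = 0.657). The 3 probe sets most like Mcl1 over the 16 arrays, of 2329 searched, were those of Tmbim1 (r = 0.947), Abca1 (0.897), a lipid exporter, and Prkar1a (0.889), a regulatory subunit of protein kinase A.

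**Figure D3:**
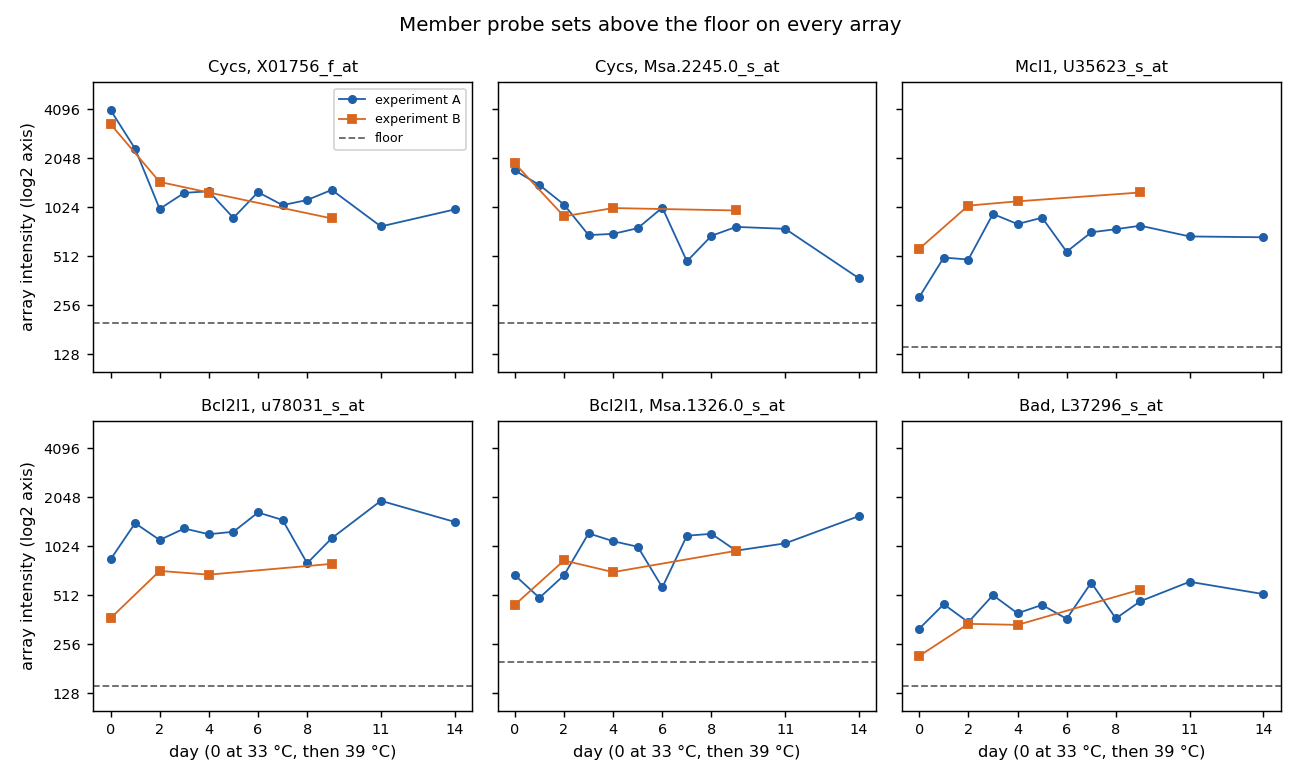
Array intensity (log2 axis) against day for the 6 member probe sets above the floor on every array, with experiment A as circles, experiment B as squares and the floor of the design as a dashed line. Cycs is highest at day 0 in both experiments, Mcl1 is lowest at day 0 in both and runs higher in experiment B, and u78031_s_at of Bcl2l1 runs lower in experiment B.

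Bcl2l1, whose long product Bcl-xL restrains release and whose short splice form promotes death, had 2 probe sets well above the floor and neither passed in a phase comparison. On u78031_s_at (design a) day 0 read 850 in experiment A and 370 in experiment B. Experiment A then read 1421, 1120 and 1318 early, 1215, 1258, 1653 and 1487 in the middle phase and 806, 1148, 1950 and 1447 late. Experiment B read 723, 686 and 799 on days 2, 4 and 9. All later arrays but day 8 of experiment A were above day 0 of their own experiment, and the pooled groups overlapped. The differences were 0.98 ± 0.43 early (adjusted p = 0.297), 1.11 ± 0.41 in the middle phase (0.117) and 1.05 ± 0.41 late (0.124), and with the block 0.76 ± 0.29 (0.153), 0.84 ± 0.28 (0.0589) and 0.78 ± 0.28 (0.0732). With the noise level as a covariate the early (1.05, adjusted p = 0.0452) and the middle difference (1.14, 0.0137) passed, and without day 4 of experiment B the middle one did (1.31, 0.044).

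On its brighter design b probe set Bcl2l1 read 680 and 448 at day 0 of experiments A and B. It then read 494, 680 and 1230 early, 1101, 1018, 573 and 1190 in the middle phase and 1222, 963, 1068 and 1571 late in experiment A, with 838, 711 and 961 on days 2, 4 and 9 of experiment B. The late arrays were all above both day 0 arrays, as they were for 10.5% of all probe sets tested, and the highest was day 14. The late difference of 1.04 ± 0.38 did not pass (adjusted p = 0.0947, with the block 0.97 ± 0.36 and 0.0822), nor did the change with day (0.0922). Leaving out day 6 of experiment A brought the change with day under the threshold (0.0443). The other design b probe set was above the floor on 2 of 16 arrays, day 7 (414) and day 11 (231) of experiment A, and read between -170 and 118 on the others. The files do not say which splice form a probe set reads. The patterns most like u78031_s_at were those of Jarid2 (r = 0.932), a Polycomb-associated protein, Cox8a (0.924), a cytochrome c oxidase subunit, and Syne4 (0.924), a nuclear envelope protein of hair cells.

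Bcl2 (l31532_at, design a) was near the floor. It read 241 and 119 at day 0 of experiments A and B, then 194, -54 and 143 early in experiment A and 67 in experiment B. From day 4 on, its 10 arrays read between -135 and 13, all below the floor of 141. With 1 of 2 day 0 arrays above the floor, the late difference of -0.39 ± 0.16 did not pass (adjusted p = 0.143) and is a low estimate of any fall. It passed with the floor set at the median instead of the 75th percentile (-1.40, adjusted p = 0.0219), as it did in the middle phase (0.0274). It passed also in experiment A alone and without day 0 of experiment B, but both settings set 1 day 0 array (241) against arrays all tied at the floor and assume that this array varies like the other groups. On the arcsinh scale, which sets no floor, the late difference passed too (adjusted p = 0.0473). The gene's other probe set (l31532_g_at) read from -98 to 143, was above the floor on 1 array, and was not tested. Its day 0 arrays read -98 and -73, and all 11 later arrays of experiment A and all 3 of experiment B read above their own day 0. All but 1 of these readings lie below the floor, where readings have no order, so this order is not evidence on the gene. The lower-floor and arcsinh results of l31532_at also draw on readings below 141.

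Of the BH3-only proteins, Bad (L37296_s_at, design a), which binds and neutralises Bcl-xL, was above the floor on all 16 arrays. It read 319 and 217 at day 0 of experiments A and B, then 451, 350 and 513 early in experiment A and 342 in experiment B. In the middle phase it read 397, 447, 367 and 613 in experiment A and 337 in experiment B, and late 369, 471, 620 and 521 in experiment A and 555 in experiment B. Every later array was above both day 0 arrays, a separation upwards seen in 7.17% of all probe sets early, 10.1% in the middle phase and 10.5% late. The differences of 0.63 ± 0.35 early (adjusted p = 0.502), 0.68 ± 0.33 in the middle phase (0.271) and 0.93 ± 0.33 late (0.0883) did not pass, nor did the late one with the block (0.85 ± 0.30, 0.067). It passed late with limma's plain moderation, without trend and robust weighting (adjusted p = 0.0334). The 3 probe sets most like Bad were those of Mepce (r = 0.87), Psap (0.833), the precursor of the saposins, and Nmt1 (0.832), an N-myristoyltransferase.

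Bid (U75506_s_at, design a), which carries the signal of death receptors to mitochondria, was above the floor on 3 arrays. These were day 0 of experiment B (180) and days 1 and 3 of experiment A (156 and 147). Day 0 of experiment A read 119, and from day 4 on all 10 arrays read between -34 and 77. The late difference of -0.18 ± 0.10 did not pass (adjusted p = 0.296), and with the floor at the median it did (-1.14, adjusted p = 0.0266), as it did in the middle phase (-1.18, 0.0269). Both groups lie near the floor, so the size of any change in Bid is not given by these arrays.

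Of the executioners, Casp6 (aa020512_s_at, design a), a caspase that cleaves lamins, was above the floor on 3 of 16 arrays, all of experiment B. Experiment B read 98 at day 0 and 298, 327 and 181 on days 2, 4 and 9. Experiment A read -84 at day 0 and 22 to 124 on its 11 later days, never above 141. Readings below the floor have no order, and only experiment B exceeded it. The differences from day 0 were 0.27 ± 0.32 early (adjusted p = 0.892), 0.24 ± 0.31 in the middle phase (0.758) and 0.07 ± 0.31 late (0.935), with a 95% interval late of -0.58 to 0.72. With the block the adjusted p were 0.27, 0.164 and 0.412. Experiment B was not tested alone.

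**Figure D4:**
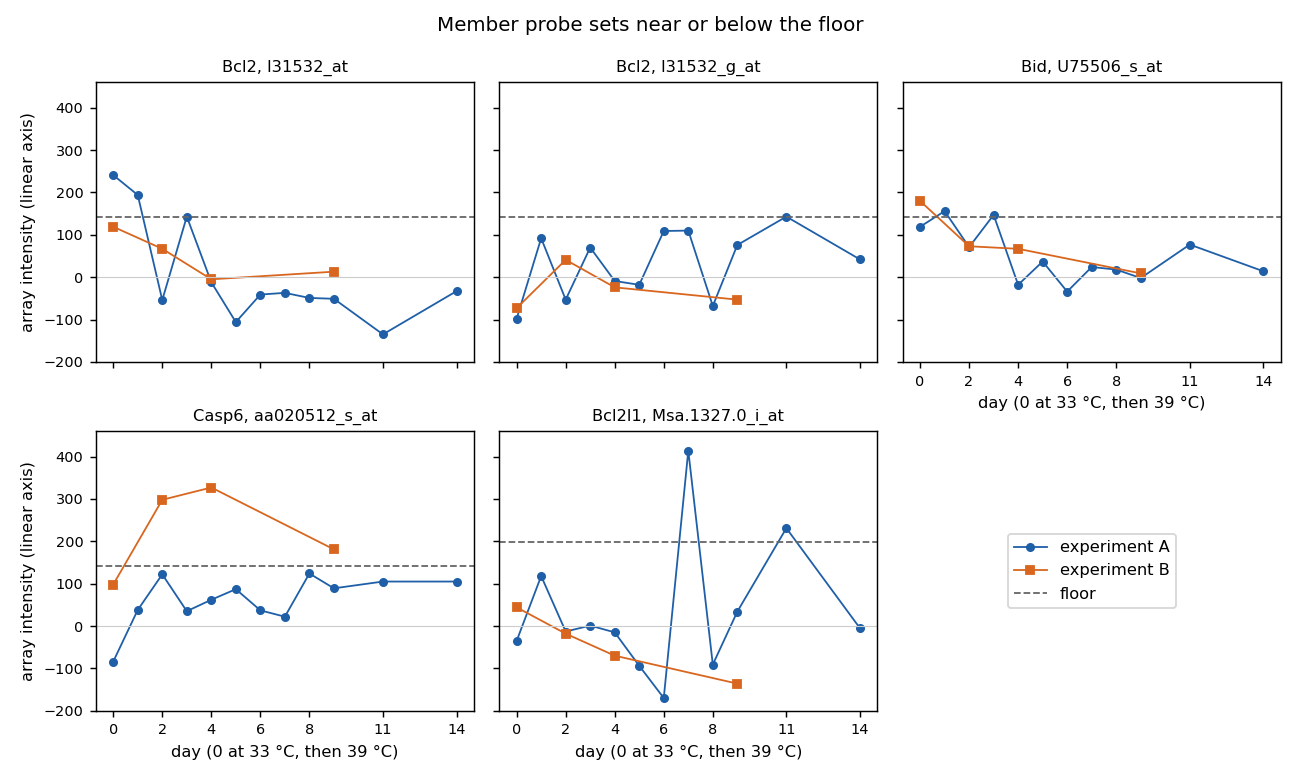
Array intensity (linear axis, negative values included) against day for the 5 member probe sets near or below the floor (dashed line, 141 on design a and 198 for the Bcl2l1 probe set on design b), with experiment A as circles and experiment B as squares. From day 4 on all Bcl2 l31532_at and Bid points lie under the line, and Casp6 exceeds it in experiment B alone, at 181 to 327.

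Other genes of the route were counted in 5 lists. Of Bcl2 relatives and their binding partners (25 genes), 14 had 17 probe sets, of which 15 were tested. Early and in the middle phase 0 passed, and late 1 fell (6.08% of all), 0 rose and 14 did not pass. The late median was 0.19 for the list and 0.11 for all probe sets tested. The one that fell was Bcl10, an adaptor of NF-kappaB signalling that is no Bcl2 relative despite its symbol. Bcl10 read -28 to 152 late (n = 5), against 288 and 310 at day 0, a difference of -1.04 ± 0.30 (adjusted p = 0.0311), and 2 of its late arrays were above the floor. Its call was lost when day 0 of experiment A (0.0916) or B (0.185) was left out, or day 9 (0.0505), day 11 (0.0554) or day 14 (0.0575) of experiment A, with a lower floor (0.12), a higher floor (0.125) or no filter (0.0638), and on the arcsinh scale (0.0762). With experiment as a block Bag3, a co-chaperone induced by heat and proteotoxic stress, rose late by 1.31 ± 0.33 (2.48-fold, adjusted p = 0.0117, against 0.216 without the block). With the block the change with day also passed for Bag3 (0.047), Bcl2l11 (0.0215), the BH3-only protein Bim, and Bok (0.0477), a Bax-like effector. Bak1, the effector that acts beside Bax, was picked after its values were seen. It averaged 776 late and 953 at day 0, a difference of -0.23 ± 0.41 that did not pass (adjusted p = 0.785). The late count of the list was 0 to 3 over the alternatives, with 1 higher and 2 lower at 3, reached with the noise level as a covariate, and its early and middle counts were at most 1 and 2.

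Of the other caspases and apoptosome proteins (18 genes), 9 had 11 probe sets and 7 were tested. In each of the early and middle phases 0 passed, and late 1 fell (6.08% of all), 0 rose and 6 did not pass. It was a probe set of Parp1, a DNA repair enzyme and caspase substrate, which read 117 to 278 late, against 394 and 746 at day 0 (-1.55 ± 0.48, adjusted p = 0.0431). The gene's other probe set did not pass (-0.16 ± 0.38, adjusted p = 0.854), and the call of the first ended when any of 11 arrays was left out, days 0, 1, 3, 4, 5, 6, 8, 9, 11 and 14 of experiment A and day 0 of experiment B (adjusted p from 0.0504 to 0.471). It ended also with the lower floor (0.0646), with no filter (0.0949), in experiment A alone (0.103) and with late as days 9 to 14 (0.0805). Casp9, the initiator that cytochrome c activates through Apaf1, was also picked after its values were seen. It averaged 238 late and 149 at day 0 (0.63 ± 0.36, adjusted p = 0.325). With a higher floor or without day 9 of experiment B, 1 probe set of the list fell early, 1 in the middle phase and 2 late, and with the noise level as a covariate 1 fell early and 1 in the middle phase. Of the inhibitors of apoptosis (10 genes), 4 had 5 probe sets (Xiap, Birc2, Birc3 and Cflar), none was above the floor on more than 1 array, and 0 were tested.

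Of the death receptors and adaptors (20 genes), 11 had 15 probe sets and 10 were tested. In each of the phase comparisons 0 passed in limma, and the median was 0.24 late. In the middle phase 3 rose with the lower floor and 1 on the arcsinh scale, and 1 did without day 1 or day 2 of experiment A. Early, 1 rose without day 1 of experiment A. The change with day passed for 1, a probe set of Tnfrsf1b (TNFRII_at, adjusted p = 0.0388) that was above the floor on 3 arrays, while the gene's other probe set did not pass (0.191). With the block it passed also for Tnfrsf1a (0.0365, against 0.0592 without), the main receptor of tumour necrosis factor.

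The last list held the partners of cytochrome c in the respiratory chain and the carriers and channels of the mitochondrial membranes (32 genes, of which 25 had 32 probe sets and 30 were tested). Of these, 3 fell early, 4 in the middle phase and 4 late, and 0 rose, where 2.05%, 4.58% and 6.08% of all probe sets tested fell. The median was -0.38 late, against 0.11 over all probe sets tested. The list had 24 genes tested, and the early calls were all of 1 gene, Slc25a5. With the noise level as a covariate 5 fell and 2 rose late, and in experiment A alone or without day 0 of experiment B 0 passed early. The probe sets that fell were all 3 of Slc25a5, an ADP/ATP carrier of the inner membrane, and that of Cox5a, a subunit of cytochrome c oxidase, the enzyme that takes electrons from cytochrome c. Slc25a5 read 497 to 772, 372 to 771 and 404 to 837 late on its 3 probe sets, against 2450 and 3502, 2920 and 3380, and 3247 and 4136 at day 0. The late differences were -2.33 ± 0.33 (adjusted p = 0.000151), -2.41 ± 0.39 (0.000425) and -2.81 ± 0.50 (0.00107), and these probe sets are of the family-shared kind. The early Slc25a5 calls were lost when the day 0 array of experiment B was left out (adjusted p = 0.0946 to 0.146) and in experiment A alone (0.101 to 0.153). Cox5a, on a probe set also of the family-shared kind (X15963_f_at), read 591 to 1526 late, against 3333 and 3598 at day 0 (-1.61 ± 0.36, adjusted p = 0.0065). In the middle phase it read 903 to 1768 (-1.43 ± 0.36, 0.0176). The late Cox5a call ended without day 0 of experiment A (0.0586) or B (0.0589) and in experiment A alone (0.0567), and the middle one under the same 3 settings (0.113, 0.111 and 0.0828) and with the Gapdh control ratio as a covariate (0.0531).

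The other 26 probe sets of that list did not pass late. Cyc1, the complex III subunit that hands electrons to cytochrome c, was picked after its values were seen and averaged 1315 late and 1882 at day 0 (-0.59 ± 0.28, adjusted p = 0.219). The change with day passed for Uqcrfs1, the Rieske protein of complex III (adjusted p = 0.0131), and for the 3 probe sets of Slc25a5. With experiment as a block Cox7a2l, a protein that joins complexes III and IV, rose early (0.95 ± 0.25, adjusted p = 0.0332, against 0.236 without) and in the middle phase (0.79 ± 0.25, 0.0458, against 0.278). With the block Cox6c, another cytochrome c oxidase subunit, rose in the middle phase (0.96 ± 0.30, 0.0426, against 0.138), and the change with day passed for the second Cox7a2l probe set (0.0308). Both Cox7a2l probe sets are of the family-shared kind. Within this list probe sets lay on both sides of 0, as the plot of the pathway lists shows.

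**Figure D5:**
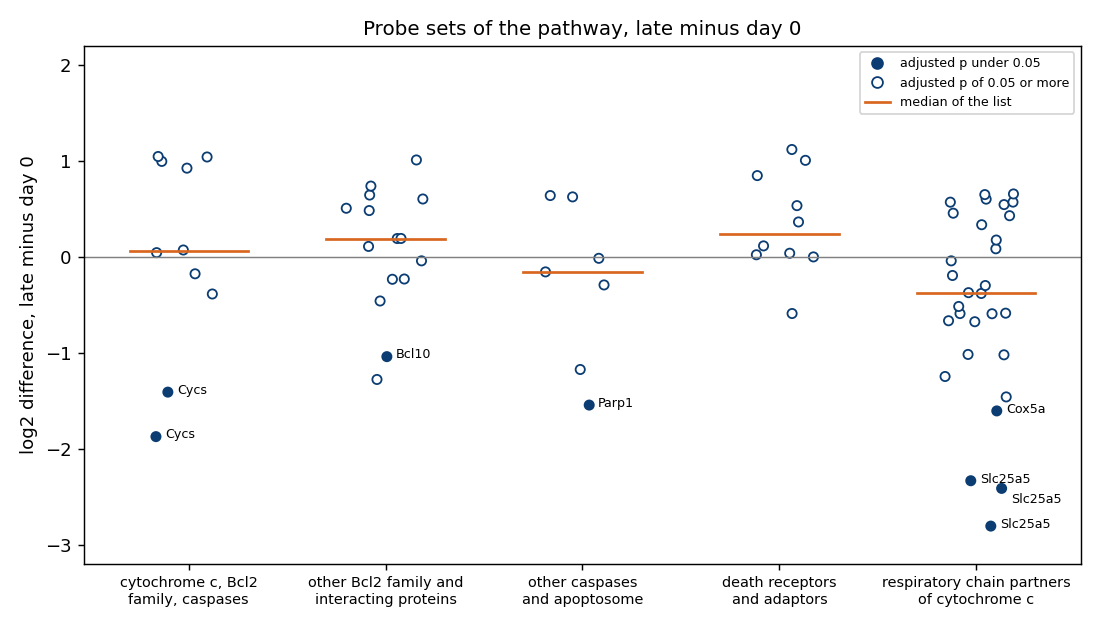
Log2 difference, late minus day 0, of each tested probe set of the members and of 4 pathway lists; filled points passed, named by gene, and bars mark the median of each list. All filled points lie below 0, and the list of respiratory chain partners holds the lowest, Slc25a5, at -2.33 to -2.81. The plotted fit has no block for experiment. With the block Mcl1 (1.23) and Bag3 (1.31) also passed late, above 0.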

How the data were processed

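The deposited tables hold array intensities on a linear scale, as scaled by the authors. They are whole numbers that include negative ones, and the trimmed mean of each array lies between 300.4 and 300.8. They were used as deposited. For the software and background method, the sources used here give nothing. Of 6584 probe sets on design a and 6595 on design b, 61 controls each were left out. Symbols came from the platform annotation, which gave 1 symbol to 5541 probe sets of design a and 2001 of design b. The number of arrays limits the precision.

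Intensities below the floor (141 and 198) were set to it before log2, and probe sets above it on at least 2 of 16 arrays were tested (4294 and 3432). Models were fitted per design in R 4.3.3 by limma 3.58.1 (lmFit and eBayes, trend and robust options on). The 4 phases entered 1 fit, which leaves 12 residual degrees of freedom, and p-values were two-sided and adjusted by Benjamini-Hochberg over both designs. The change with day was tested by an F-test on a natural spline (3 degrees of freedom). The days of a phase serve as its samples. Readings tied at the floor have no spread, which can make p-values of dim probe sets too small. The fit was also run on simulated data that held no difference between the experiments. That run does not bear on such differences, and its outcome is not given here.

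Differences between experiments A and B correlated between days (r from 0.274 to 0.691 on design a and 0.388 to 0.726 on design b, over 6 pairs of days each). Experiment therefore pairs the samples, and the value with experiment as a block is printed where it changes a call. Named genes are all member probe sets, pathway probe sets that passed in a phase comparison, and the 3 genes with the highest Pearson correlation to each member's brightest probe set, where at least 12 arrays were above the floor. Pathway genes named only for the blocked fit or the change with day, and those said to be picked so, were chosen after their values were seen. Members and lists were chosen with earlier results of these data known. Promoters came from RefSeq (GRCm38.p6). The files name no genome build, and no coordinates of probe sets are given.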

Additional observations from a re-analysis of the deposited data

Results flagged for a closer look

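Within phases of 4 or 5 arrays, a single array stood apart from the others (by Dixon's gap test at the 95% level) in 8 of 33 groups of member probe sets. The 33 include groups whose arrays were all tied at the floor, such as Bid in the middle and late phases, which could not be flagged. The nominal rate of about 1 in 20 groups by chance therefore does not hold here. The test was run on floored values, and in 6 of the 8 groups all other arrays were tied at the floor, so that any 1 array above it stands apart by construction. On the intensities as deposited 3 of the 8 stand apart (Mcl1 late, Casp6 in the middle phase and Bcl2l1 in the middle phase), and neither Bcl2 array does. For Casp6 the array above the others was that of experiment B in each phase. Casp6 read 298 on day 2, where the next highest early array read 122, 327 on day 4, where the next read 87, and 181 on day 9, where the next read 124. For Mcl1 it was also experiment B, with 1263 on day 9 against 789 for the next late array. The remaining 4 were from experiment A. Bcl2 read 194 on day 1 (l31532_at, next 143) and 143 on day 11 (l31532_g_at, next 76). The dim Bcl2l1 probe set on design b read 414 on day 7 (next -15) and 231 on day 11 (next 34).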

How the results depend on the processing

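The late fall of Cycs on X01756_f_at kept its call and its direction under all 28 alternatives tried, and the middle one under all 27. Experiment as a replicate block changed the call of no members other than Mcl1 (3 phases and the change with day) and the second Cycs probe set (middle phase). The count of member probe sets that passed early (1) became 0 with no filter, in experiment A alone and with early as days 1 and 2, 2 with the block or the noise covariate, and 0 to 1 with 1 array left out. The middle count (1) became 3 with the lower floor, the block or the noise covariate, 2 with the higher floor, the filter on 8 arrays, plain eBayes, experiment A alone or the Gapdh covariate, and 1 to 3 with 1 array left out. The late count (2) became 4 with the lower floor, 1 with no filter and 1 to 2 with 1 array left out, and that for the change with day (2) became 4 with the lower floor. For most of these settings the share of all probe sets is not given, so a general shift in calls cannot be told apart.

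Over all probe sets the early count (270) became 175 on the arcsinh scale, 469 with the block, 173 in experiment A alone, 451 with the noise covariate, 172 with early as days 1 and 2 and 126 to 338 with 1 array left out. The middle count (633) became 959 with the block and 321 to 717 with 1 array left out. Over the 11 other alternatives, the block among them, it ran from 438 to 959. The late count (844) became 555 in experiment A alone, 402 to 929 with 1 array left out and 555 to 1117 over the 12 other alternatives. The count for the change with day (752) became 1241 with the block and 466 to 931 with 1 array left out. Late against early (76), it became 40 with no filter, 184 with the block, 31 in experiment A alone, 166 with the noise covariate, 141 with the Gapdh covariate, 118 with early as days 1 and 2, and 30 to 118 with 1 array left out. On the arcsinh scale the early calls were 113 higher and 62 lower, against 112 higher and 158 lower with the floor, the middle ones 334 and 268 against 279 and 354. In the late phase the split was 429 higher and 389 lower on that scale, against 374 and 470.

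Directions that turned belong to differences near 0 of which none passed, and their cause was not tested. Early, Bcl2 l31532_at ran between -0.653 and 0.12 with 1 array left out (0.12 without day 0 of experiment A). Bid stood at 0.0687 in experiment A alone and ran between -0.301 and 0.0515 with 1 array left out (0.0515 without day 0 of experiment B). The dim Bcl2l1 probe set on design b stood at -0.0826 in the middle phase, at -0.0167 late and at -0.134 late against early on the arcsinh scale, and at -0.0595 late with the noise covariate. Late against early, Bcl2l1 u78031_s_at stood at -0.0101 in experiment A alone, at -0.176 with the noise covariate and at -0.0623 with the Gapdh covariate, and ran between -0.144 and 0.196 with 1 array left out, below 0 without A day 11, A day 14 or B day 2. Casp6 stood at 0.0842 with the lower floor and at 0.101 on the arcsinh scale, and ran between -0.288 and 0.0721 with 1 array left out (0.0721 without B day 2). Signal over background limits Bcl2, Bid, Casp6 and the inhibitors of apoptosis, whose readings lie at or near the floor.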
